A study of Homo sapiens with 17 samples.

Results

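The insulin-like growth factor (IGF) axis was followed through 10 genes chosen by symbol: the ligand gene IGF2, the receptor genes IGF1R and IGF2R, the binding protein genes IGFBP2, IGFBP3, IGFBP4 and IGFBP5, the noncoding gene H19, and the adaptor genes IRS1 and IRS2. All 10 were found among the 60662 genes held by both deposited tables, each in 1 row per table. The libraries were of CHP-134, a human neuroblastoma line that carries extra copies of MYCN, grown either in dishes or under the skin of mice. Each culture group had 2 libraries, DMSO (the solvent alone) and 1, 3 or 6 days of all-trans retinoic acid (ATRA) at 2 µM. The mice were female athymic nude animals of about 12 weeks that received luciferase-labeled cells, and 5 control tumors and 4 tumors of mice given 13-cis-retinoic acid (RA tumors) were sequenced. Oral gavage delivered 25 mg/kg in each of 2 doses per day, and the labels call the control tumors untreated while the study's text calls them vehicle-treated. ATRA and 13-cis-retinoic acid are stereoisomers, so culture and tumors differed in the drug form as well as in the host. Athymic nude mice lack mature T cells but keep other leukocytes, fibroblasts and vessels of mouse origin. All libraries come from 1 cell line, and no label says that replicates were separate cultures, so p-values measure the spread between these libraries. Most CHP-134 cells die under ATRA in culture, so the latest culture libraries hold the cells that were left.

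IGF2 is a secreted growth factor that signals through the tyrosine kinase receptor encoded by IGF1R, while the receptor encoded by IGF2R binds IGF2 and carries it to lysosomes without growth signaling. IGF-binding proteins hold IGFs outside the cell and release them when proteases such as pappalysin cut them, and IRS1 and IRS2 link the activated receptor to PI3K and AKT. IGF2 and H19 are imprinted neighbors that are usually expressed from opposite parental copies, and IGF2 is known as a growth factor of fetal tissue and of embryonal tumors, neuroblastoma among them.

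A gene was called higher or lower when the Benjamini-Hochberg adjusted p from edgeR's quasi-likelihood test was under 0.05 and the change was over 2-fold. Levels are given as CPM (counts scaled to a common library size) after scaling of library sizes by TMM (trimmed mean of M values), and levels of different genes are compared only as RPKM, which divides by exonic length. Depth ran from 31607051 to 39422897 counts over the culture libraries and from 17266558 to 29078889 over the tumors. The summed level of 11 neuroblastoma identity genes was 3550 to 3600 CPM in DMSO cells, 2500 to 2520 CPM after 6 days and 2690 to 4330 CPM over the control tumors. MYCN led these sums, at means of 1960, 981 and 2830 CPM, so they do not show that the other genes held their level. Against DMSO cells, GATA2, ISL1 and MYCN were called lower after 6 days, and PHOX2A, TH and DBH higher. In control tumors GATA2, GATA3, PHOX2A, ISL1 and HAND2 were called lower, and TH, DBH and CHGB higher. TH and DBH, the enzymes of catecholamine synthesis in that list, were at or under 0.263 CPM in DMSO cells. The mitochondrial share of counts was 2.11% and 2.18% in DMSO cells, 3.26% and 3.27% after 6 days, and 3.1% to 5.74% in tumors, with the highest shares in control tumor 4 and in RA tumor 1 (5.07%).

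In culture, the number of members called rose with the time of ATRA exposure, as did the share of all genes called. H19 was the 1 member of 10 called higher after 1 day, when 1.95% of all genes tested were called higher, and 0 were called lower against 0.791% of all genes. After 3 days, H19 was again the 1 member called higher (5.45% of all genes) and IGFBP2 and IGFBP5 were the 2 called lower (2.43%). After 6 days, 4 members were called higher (IGF2, IGF1R, IGFBP3 and H19) and 2 lower (IGFBP2 and IGFBP4), against 18.8% and 12.3% of all genes. The comparisons with DMSO share the same 2 DMSO libraries.

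**Figure D1:**
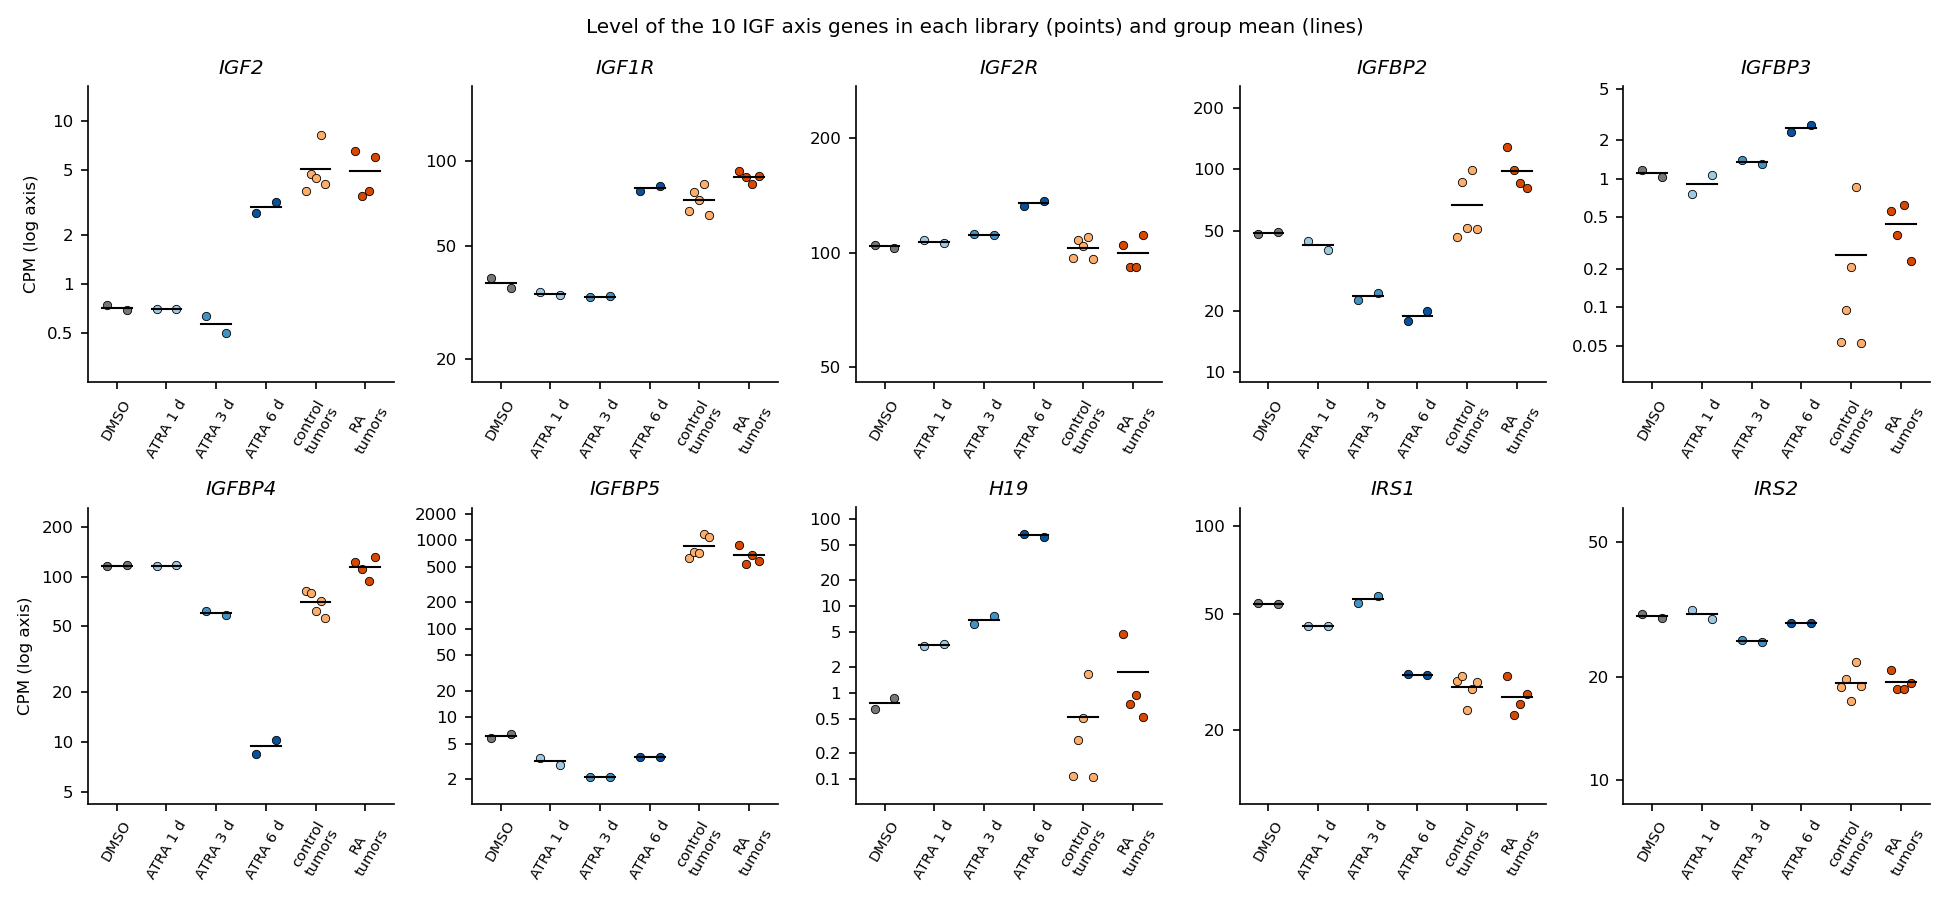
Level of each of the 10 genes in CPM (log axis) in every library, with points for libraries and black lines for group means (2 libraries per culture group, 5 control tumors and 4 RA tumors). H19 climbed from 0.765 CPM on average in DMSO cells to 65.6 CPM after 6 days, IGFBP4 went from 117 to 9.38 CPM, and IGFBP5 was far higher in all 9 tumors than in any culture.

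IGF2 lies on chromosome 11 of GRCh38 at 2129112 to 2158391 on the minus strand. Its level in DMSO cells was low, at 0.737 and 0.687 CPM, which rested on 22 to 27 counts per library. It stood at 0.704 and 0.698 CPM after 1 day, 0.63 and 0.497 CPM after 3 days, and 2.74 and 3.17 CPM after 6 days. The 6-day libraries lay above all others in culture, and those at 1 day fell within the range of DMSO cells. The rise at 6 days was 4.04-fold (log2 2.01 ± 0.25 SE, adjusted p = 4.98e-09), with a step of 5.01-fold between 3 and 6 days (adjusted p = 9.96e-10). At 1 and 3 days IGF2 differed from DMSO by log2 −0.01 ± 0.3 and −0.31 ± 0.32, with adjusted p of 0.99 and 0.466. Exons of IGF2 overlap the readthrough gene INS-IGF2, which had 0 counts in every library, and the antisense gene IGF2-AS, which had at most 3 counts in any library. The other IGF ligand gene, IGF1, had 0 counts in both DMSO libraries and a mean of 0.423 CPM after 6 days, and was called higher.

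H19, a spliced noncoding RNA with no protein product, lies 124560 bases from IGF2 on the same strand, at 1995166 to 2004552. Its level was 0.655 and 0.875 CPM in DMSO cells, 3.44 and 3.66 CPM after 1 day, 6.26 and 7.6 CPM after 3 days, and 68.6 and 62.5 CPM after 6 days. No pair of time points overlapped, and the order of the groups followed the time of exposure. H19 rose 4.72-fold by 1 day (log2 2.24 ± 0.18, adjusted p = 4.62e-12), 9.35-fold by 3 days (3.22 ± 0.16, adjusted p = 2.86e-18) and 84.2-fold by 6 days (6.4 ± 0.11, adjusted p = 2.01e-32). The step from 1 to 3 days was 1.98-fold (adjusted p = 1.09e-08), just under the 2-fold limit, and that from 3 to 6 days was 9-fold (adjusted p = 9.78e-28). The call at 1 day was lost when all 17 libraries shared the estimate of the spread, at log2 2.22. Per length, H19 stood at 2.23 ± 0.56 times the level of IGF2 in DMSO cells (SD, n = 2) and at 46.2 ± 7.74 times after 6 days. Because H19 rose first and furthest, its promoter in RefSeq (GRCh38.p14, chr11:2001267-2001516, minus strand, the 250 bases before the RefSeq start) is printed here. This window lies inside the span given above, so the bases before the outermost start at 2004552 were not searched. It has 58.0% G and C and 4 CpG dinucleotides, and it held none of the 3 motifs described below for the binding protein genes.
H19: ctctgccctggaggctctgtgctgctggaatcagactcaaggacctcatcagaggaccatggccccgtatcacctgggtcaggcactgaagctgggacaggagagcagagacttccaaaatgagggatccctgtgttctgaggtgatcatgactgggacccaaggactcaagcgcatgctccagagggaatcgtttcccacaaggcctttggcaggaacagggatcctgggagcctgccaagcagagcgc

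The H19 transcript also carries the hairpin of miR-675 in an exon, and the mature sequences from RefSeq are shown because they are the annotated small RNA products of this transcript, with the seed (bases 2 to 8) in capitals. The hairpin's own row had 0 counts in every library, and mature miRNAs were not measured by these total RNA libraries. The seeds of the 5p and 3p arms differ.
hsa-miR-675-5p: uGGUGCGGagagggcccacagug
hsa-miR-675-3p: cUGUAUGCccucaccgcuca

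IGF1R lies on chromosome 15 at 98648539 to 98964530 and IGF2R on chromosome 6 at 159969082 to 160113507, both on the plus strand. IGF1R, the receptor that carries the growth signal, was at 38.7 and 35.5 CPM in DMSO cells, 34.5 and 33.5 CPM after 1 day, 33.1 and 33.3 CPM after 3 days, and 78.5 and 82 CPM after 6 days. Levels at 6 days lay above all other culture libraries, and those at 1 and 3 days lay below DMSO. The rise by 6 days was 2.11-fold (log2 1.08 ± 0.05, adjusted p = 4.53e-22), with 2.3-fold between 3 and 6 days (adjusted p = 5.55e-23). IGF2R, the receptor that clears IGF2, ranged from 103 to 137 CPM over the 8 culture libraries and was highest after 6 days, a difference from DMSO of log2 0.34 ± 0.03 that did not reach 2-fold (adjusted p = 4.14e-13). Per length, IGF2R stood at 1.73 ± 0.0778 times the level of IGF1R in DMSO cells, 2.07 ± 0.0262 times after 3 days and 1.04 ± 0.0123 times after 6 days (SD, n = 2 each). Relative to INSR, the insulin receptor that pairs with it in hybrid receptors, IGF1R went from 0.593 ± 0.0378 per length in DMSO cells to 0.781 ± 0.00227 after 6 days.

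**Figure D2:**
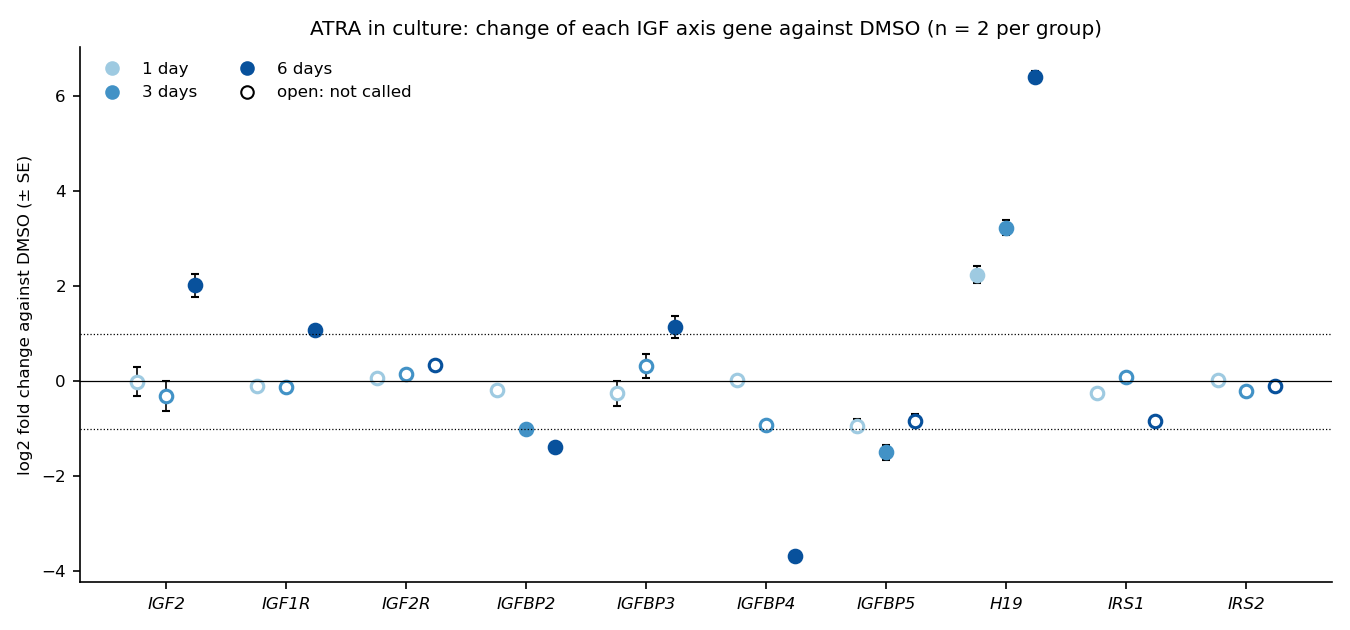
Change of each gene in culture against DMSO on the log2 scale, with standard errors from edgeR, after 1, 3 and 6 days of ATRA. Filled points were called, open points were not, and dotted lines mark a 2-fold change. H19 rose at each time (2.24, 3.22 and 6.4), while IGF2 and IGF1R were called after 6 days (2.01 and 1.08) and IGFBP4 reached −3.67.

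Among the 4 binding protein members, IGFBP4 (chromosome 17, 40443450 to 40457725, plus strand) fell furthest by 6 days. It was at 116 and 117 CPM in DMSO cells, 116 and 117 CPM after 1 day, 61.9 and 58.3 CPM after 3 days, and 8.46 and 10.3 CPM after 6 days. The 1-day libraries overlapped those of DMSO, and after that each time point lay wholly below the one before. The difference was log2 0.02 ± 0.04 at 1 day and −0.92 ± 0.04 at 3 days (1.9-fold, adjusted p = 6.46e-20, under the 2-fold limit), and IGFBP4 fell 12.7-fold by 6 days (log2 −3.67 ± 0.05, adjusted p = 6.05e-34). Of this, 6.7-fold fell between 3 and 6 days (adjusted p = 6.57e-29). IGFBP4 is the best known substrate of pappalysin and inhibits IGF action while intact.

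IGFBP2 and IGFBP5 are neighbors on chromosome 2, 7669 bases apart and pointing toward each other, with IGFBP2 at 216632828 to 216664436 on the plus strand and IGFBP5 at 216672105 to 216695549 on the minus strand. IGFBP2, a binding protein common in fetal and nervous tissue, was at 48.2 and 49.2 CPM in DMSO cells, 44.4 and 40.2 CPM after 1 day, 22.7 and 24.6 CPM after 3 days and 17.9 and 20.1 CPM after 6 days. Each group lay below the one before, and IGFBP2 fell 2.01-fold by 3 days (log2 −1.01 ± 0.06, adjusted p = 2.52e-16) and 2.62-fold by 6 days (−1.39 ± 0.06, adjusted p = 1.3e-20). The call at 3 days sat on the 2-fold limit: it was lost with total counts as the scaling, with all 17 libraries in the fit, and without DMSO replicate 2 or ATRA 3-day replicate 1, with a range of −1.07 to −0.95 over the libraries left out. IGFBP5, which binds IGFs to the cell surface and matrix, was at 5.81 and 6.5 CPM in DMSO cells, 3.44 and 2.88 CPM after 1 day, 2.12 and 2.11 CPM after 3 days and 3.54 and 3.56 CPM after 6 days. Every treated library lay below DMSO, with the lowest levels after 3 days, when IGFBP5 fell 2.83-fold (log2 −1.5 ± 0.15, adjusted p = 2.19e-10). It did not reach 2-fold at 1 day (−0.94 ± 0.14) or 6 days (−0.83 ± 0.14, adjusted p = 3.02e-06). IGFBP3 (chromosome 7, 45912245 to 45921874, minus strand), the main carrier of IGFs in blood, rested on few counts. It was at 1.17 and 1.03 CPM in DMSO cells and 2.31 and 2.63 CPM after 6 days, with values from 0.76 to 1.39 CPM in between, and rose 2.18-fold (log2 1.13 ± 0.23, adjusted p = 4.97e-05). That call was lost when all 17 libraries shared the estimate of the spread.

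The make-up of binding protein transcripts changed with these falls. Summed over IGFBP1 to IGFBP7, the level per length was 64.6 ± 0.4 RPKM in DMSO cells, 62.9 ± 0.385 after 1 day, 33.2 ± 1.05 after 3 days and 9.61 ± 0.976 after 6 days (SD, n = 2 each). IGFBP4 made up 81.9% ± 0.301 of the sum in DMSO cells and still 82% ± 0.904 after 3 days, but 44.1% ± 1.62 after 6 days. IGFBP2 held 15.9% ± 0.128 in DMSO cells and 41.7% ± 0.843 after 6 days, although its own level had fallen. IGFBP5 and IGFBP3 held 5.74% ± 0.557 and 5.63% ± 0.0638 of the sum after 6 days, against 1.47% ± 0.107 and 0.373% ± 0.0365 in DMSO cells.

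**Figure D3:**
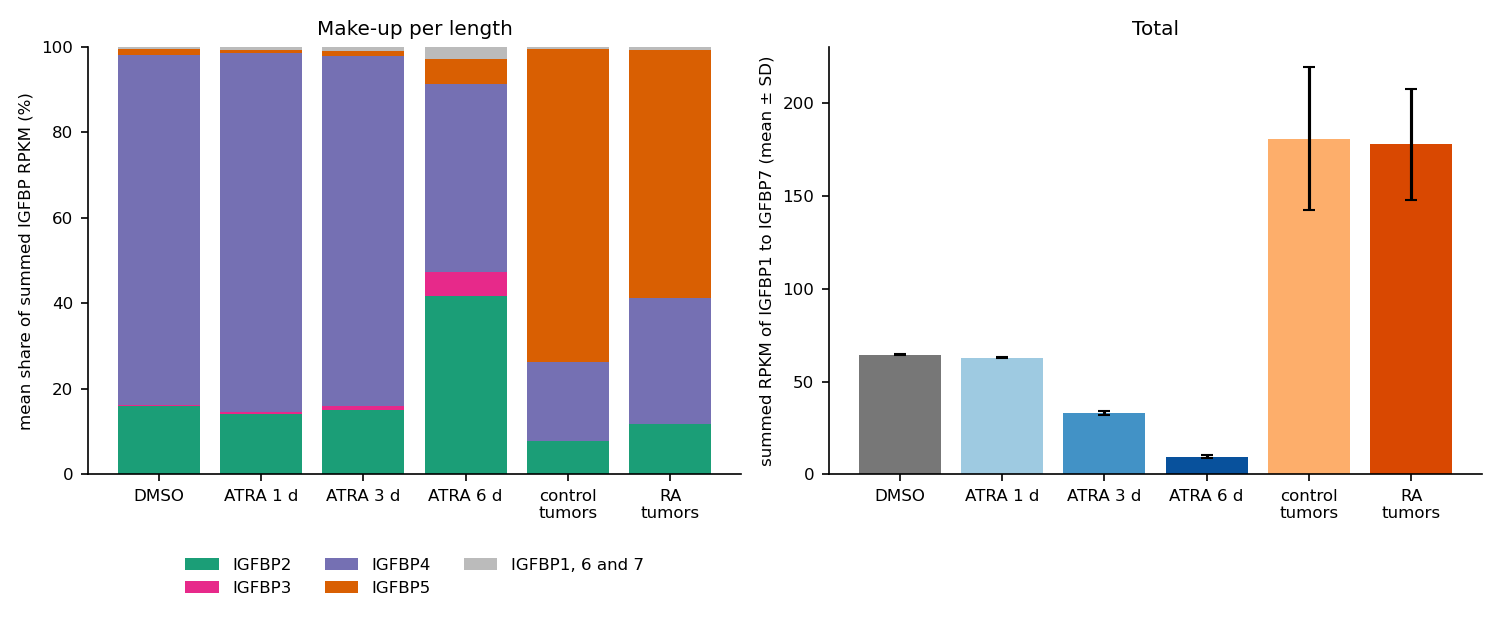
Left, mean share of the summed RPKM of IGFBP1 to IGFBP7 held by each binding protein gene in each group. Right, the sum itself (mean ± SD, 2 libraries per culture group, 5 control tumors and 4 RA tumors). IGFBP4 held 81.9% in DMSO cells, IGFBP5 held 73.3% in control tumors, and the sum went from 64.6 RPKM in DMSO cells to 9.61 after 6 days of ATRA and 181 in control tumors.

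Promoters of the 3 binding protein genes called lower in culture are printed so that the sequence before each start can be set beside the falls. The 250 bases before the start were searched on both strands for AGGTCA, the hexamer that retinoic acid receptors bind in pairs, CACGTG, the E-box bound by MYC family factors, and GGCGCC, a GC-rich element known to bind SMAD proteins of the BMP pathway. Of 35114 RefSeq promoters, 12.1%, 6.35% and 16.4% held them, and of the 10 members 9 had a promoter in the table. The retinoid receptor hexamer was found in 1 member (IGFBP2, as its reverse complement TGACCT). The E-box was found in 1 member (IGF2R, at 3 places) and the GC-rich element in 4 (IGF1R, IGFBP4, IRS1 and IRS2). A match describes these letters, and its absence says only that they are not in this window. The capitals mark the match, which starts 219 bases before the start of IGFBP4 (GGCGCC) and 191 bases before that of the outermost of 3 annotated IGFBP2 starts (TGACCT), and none of the 3 motifs was found for IGFBP5. The stretches are chr17:40443200-40443449 on the plus strand, chr2:216632578-216632827 on the plus strand and chr2:216695550-216695799 on the minus strand of GRCh38.p14, with 71.6%, 56.8% and 61.2% G and C.
IGFBP4: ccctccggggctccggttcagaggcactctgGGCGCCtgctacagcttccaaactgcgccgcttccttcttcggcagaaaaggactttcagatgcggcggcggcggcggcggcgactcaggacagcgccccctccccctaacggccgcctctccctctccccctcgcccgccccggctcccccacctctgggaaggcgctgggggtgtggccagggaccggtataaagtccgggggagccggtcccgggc
IGFBP2: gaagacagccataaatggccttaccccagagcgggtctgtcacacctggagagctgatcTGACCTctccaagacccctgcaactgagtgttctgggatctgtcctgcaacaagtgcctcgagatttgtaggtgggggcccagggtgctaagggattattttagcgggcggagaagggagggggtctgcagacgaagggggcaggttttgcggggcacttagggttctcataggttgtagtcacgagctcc
IGFBP5: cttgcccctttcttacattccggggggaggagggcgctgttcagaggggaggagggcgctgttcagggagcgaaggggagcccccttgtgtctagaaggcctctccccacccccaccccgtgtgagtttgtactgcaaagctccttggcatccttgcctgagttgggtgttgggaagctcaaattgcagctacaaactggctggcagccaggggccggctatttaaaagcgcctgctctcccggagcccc

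Neither adaptor gene was called in culture, IRS1 on chromosome 2 at 226731312 to 226799820 or IRS2 on chromosome 13 at 109752695 to 109786583, both on the minus strand. IRS1 was at 54.4 and 54.2 CPM in DMSO cells, 45.6 and 45.5 CPM after 1 day, 54.6 and 57.8 CPM after 3 days and 31.2 and 30.9 CPM after 6 days. The 6-day libraries were the lowest, at log2 −0.84 ± 0.05 from DMSO (1.79-fold, adjusted p = 1.25e-18), while the 3-day libraries lay just above those of DMSO. IRS2 ranged from 25.4 to 31.7 CPM over the 8 culture libraries and differed from DMSO by log2 −0.1 ± 0.05 after 6 days (adjusted p = 0.086). Per length, IRS1 stood at 1.46 ± 0.026 times the level of IRS2 in DMSO cells and 0.873 ± 0.0058 times after 6 days.

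Steps between time points divided the members. From 1 to 3 days, 0 of 10 members were called by edgeR, with 8 at an unadjusted p under 0.05 and 0 called by DESeq2, against 2.87% of all genes called higher and 1.22% lower. H19 (log2 0.99 ± 0.11) and IGFBP4 (−0.94 ± 0.04) came nearest to a call. How many of all genes had an unadjusted p under 0.05 was not counted. From 3 to 6 days, 3 members were called higher (IGF2, IGF1R and H19) against 12.7% of all genes, and 1 lower (IGFBP4) against 8.41%.

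The genes around the axis were read from lists of 8 kinds, in which 20 of 91 tested genes were called higher after 6 days and 11 lower, beside 18.8% and 12.3% of all genes. Among proteases that cut binding proteins and their inhibitors, 2 of 8 genes were called higher after 6 days and 2 lower, and the movement started on day 1. STC1, which encodes stanniocalcin 1, an inhibitor of pappalysin, fell from a mean of 219 CPM in DMSO cells to 51.8 CPM after 1 day, 21.4 CPM after 3 days and 5.7 CPM after 6 days (log2 −5.3 ± 0.05, adjusted p = 9.97e-43). PAPPA, which encodes pappalysin 1, was at 1.91, 2.12 and 1.84 CPM in DMSO cells and after 1 and 3 days, and rose to 11.3 CPM after 6 days (log2 2.53 ± 0.14, adjusted p = 4.01e-18). Its paralog PAPPA2 was at 0.0722 CPM in DMSO cells and rose at every time, to 1.87 CPM after 6 days (adjusted p = 2.02e-11). The fourth called gene, the protease gene HTRA1, fell by 1.13 ± 0.17 on the log2 scale.

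Over all genes, 18.8% were called higher after 6 days and 12.3% lower, and each count below stands beside these shares. Of 6 tested genes among the other ligands, receptors and carriers, 3 were called higher after 6 days and 0 lower. INSRR, an orphan relative of the insulin receptor, went from 9.23 to 77.5 CPM (log2 3.04 ± 0.06, adjusted p = 5.52e-32), and LRP1, a clearance receptor that also binds IGFBP3, was called at every time and stood at 1.01 ± 0.03 after 6 days. Among FOXO factors, which AKT holds out of the nucleus, and their target genes, 7 of 14 tested genes were called higher and 0 lower after 6 days, with a median of log2 1.03 against 0.041 over all genes and against 18.8% of all genes called higher. PIK3IP1, an inhibitor of PI3K, led at 2.83 ± 0.19, followed by CCNG2 (1.89 ± 0.06), FOXO4 (1.67 ± 0.1) and GADD45A (1.62 ± 0.05). Of 28 PI3K, AKT and mTOR genes, 3 were called higher and 2 lower, with a median of 0.2. DEPTOR, an mTOR inhibitor, rose by log2 1.92 ± 0.18 and the PI3K regulatory subunit gene PIK3R1 by 1.37 ± 0.03. The lipid phosphatase gene INPP5D fell by 1.16 ± 0.51 and, chosen here after its value was seen, EIF4EBP1, an mTOR substrate, fell by 1.09 ± 0.04. Of 13 tested genes among the other adaptors and brakes, 0 were called higher and 2 lower, SOCS3 (−1.86 ± 0.37) and GRB14 (−1.58 ± 0.21).

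Imprinted genes other than IGF2 and H19 moved in either direction. After 6 days 5 of 13 tested were called higher and 3 lower, against 18.8% and 12.3% of all genes, with a median of log2 0.17 against 0.041. CDKN1C, an inhibitor of the cell cycle in the imprinted cluster next to H19, went from 3.13 to 60.5 CPM (4.25 ± 0.09, adjusted p = 3.36e-32), and its neighbor SLC22A18 rose by 2.31 ± 0.14. MEG3, a noncoding RNA of another imprinted cluster, rose by 2.17 ± 0.03 and MEST by 1.6 ± 0.08. The 3 that fell, named after their values were seen, were PEG3 (−1.26 ± 0.04), PHLDA2 (−1.23 ± 0.35) and PEG10 (−1.05 ± 0.02). Of 4 tested regulators of imprinting, TRIM28 was called lower (−1.06 ± 0.02). Of 5 tested genes in the list of IGF2 mRNA-binding and fetal growth regulators, IGF2BP2 was called lower (−2.15 ± 0.1).

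**Figure D4:**
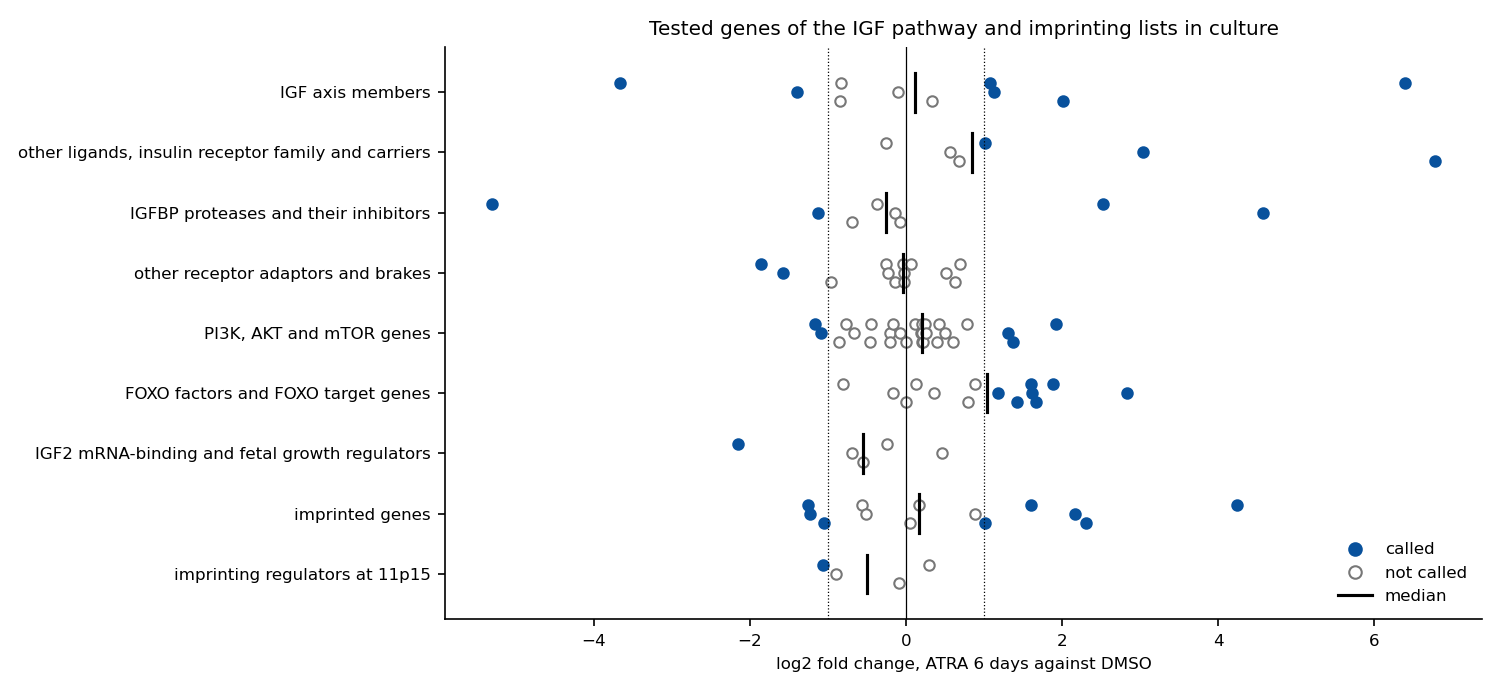
Log2 fold change after 6 days of ATRA against DMSO for the tested genes of the 10 members and of 8 related lists, 1 point per gene, with filled points for called genes, black bars for list medians and dotted lines at a 2-fold change. The FOXO list has its median at 1.03 with 7 of 14 genes called higher, and STC1 at −5.3 lies farthest to the left.

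In the tumors, retinoic acid left the axis with smaller differences. Of 10 members 9 passed the filter on low counts and 0 were called by edgeR, with 2 at an unadjusted p under 0.05 and 0 called by DESeq2. Over all genes 0.246% were called higher and 0.0379% lower, and the share at an unadjusted p under 0.05 was not counted. IGFBP4 was at 82.1, 79.1, 62, 71.4 and 56.3 CPM in control tumors and at 123, 111, 94 and 131 CPM in RA tumors. All 4 RA tumors lay above all 5 control tumors, with means of 70.2 ± 11 and 115 ± 16.1 CPM (SD). The difference of log2 0.7 ± 0.12 (1.63-fold, adjusted p = 0.0143) did not reach 2-fold. IGF1R was at 66.4, 77.7, 72.9, 83.2 and 64.5 CPM in control tumors and at 92.2, 88.1, 83.3 and 88.3 CPM in RA tumors. These groups did not overlap either, though the nearest values were 83.2 and 83.3 CPM, and the difference was log2 0.27 ± 0.08 (adjusted p = 0.109). The share of all genes whose tumor groups did not overlap was not counted, so these separations are descriptions of the 9 libraries.

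The other members overlapped between the tumor groups. IGF2 was at 3.73, 4.74, 4.46, 8.25 and 4.14 CPM in control tumors and at 6.6, 3.46, 3.71 and 6.04 CPM in RA tumors, a difference of log2 −0.04 ± 0.26 (adjusted p = 0.96). H19 was at 0.108, 0.284, 0.513, 1.63 and 0.105 CPM in control tumors and at 4.7, 0.736, 0.928 and 0.522 CPM in RA tumors. Its difference of log2 1.62 ± 0.94 (adjusted p = 0.464) leaned on RA tumor 1, without which it was 0.43, and on control tumor 4, without which it was 2.66. IGFBP5 had means of 865 ± 241 CPM in control tumors and 673 ± 157 CPM in RA tumors (SD), a difference of −0.37 ± 0.23, and IGFBP2 had means of 66.9 ± 24 and 98.6 ± 21.4 CPM, a difference of 0.55 ± 0.28 (adjusted p = 0.513 and 0.394). IGF2R, IRS1 and IRS2 differed by −0.05 ± 0.07, −0.12 ± 0.1 and 0 ± 0.09. IGFBP3 was not tested, with 25 counts over the 5 control tumors and 41 over the 4 RA tumors. Of the 8 related lists, 92 genes were tested between the tumor groups and 0 were called by edgeR, with 28 at an unadjusted p under 0.05. The share of all genes at that unadjusted p was not counted, so the 28 cannot be set against it. DESeq2 called 1 of the 92 genes, STC1, at log2 −1.15, where edgeR gave −1.15 ± 0.3 (adjusted p = 0.126). STC1, named here after its values were seen, was at 163 to 458 CPM in control tumors and 122 to 184 CPM in RA tumors, which overlapped.

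Bulk libraries cannot tell fewer cells of a type from less RNA per cell, so marker levels are given beside the tumor results. Summed fibroblast markers were at 96.2 to 177 CPM in control tumors and 87.8 to 118 CPM in RA tumors, leukocyte markers at 5.26 to 8.86 and 4.49 to 5.99 CPM, and endothelium markers at 3.03 to 8.32 and 3.2 to 5.78 CPM. Pericyte and smooth muscle markers were at 18.3 to 25 and 19.6 to 25.6 CPM, and RGS5 among them was called higher (log2 1.08 ± 0.23). Neuroblastoma identity markers were at 2690 to 4330 and 3650 to 3780 CPM, and PHOX2A among them was called higher (log2 1.02 ± 0.21). Schwann cell markers were at 10.7 to 15.9 CPM in control tumors and 19.7 to 28.3 CPM in RA tumors without overlap. NGFR led, at means of 3.36 and 10.5 CPM, and was called higher (log2 1.63 ± 0.25). The other tested genes of the list ran from −0.56 (PMP22) to 0.99 (CDH19) and were not called. In culture, which holds no host cells, the sum rose from 9.15 to 10.1 CPM in DMSO cells to 39.1 to 43.1 CPM after 6 days. NGFR led there too and SOX10 had 0 counts, so the sum is not a measure of Schwann cells here. The part of these lists in the values of IGFBP4 and IGF1R was not tested.

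Between control tumors and DMSO cells, 2 members were called higher, IGF2 and IGFBP5, against 31.5% of all genes, and 1 lower, IGFBP3, against 11.4%. The median gene differed by 0.246 on the log2 scale. Tumor and culture libraries were made with different kits and in different hosts, so growth as a tumor, the kit and mouse reads cannot be told apart in these values. IGFBP5 was at 634, 733, 710, 1170 and 1080 CPM in the control tumors and at 5.81 and 6.5 CPM in DMSO cells. No tumor came near a culture library, and the difference was 141-fold (log2 7.14 ± 0.38, adjusted p = 4.01e-09). IGFBP5 held 73.3% ± 6.29 of the summed binding protein level in control tumors (SD, n = 5) and 58% ± 5.12 in RA tumors (n = 4), where the sums were 181 ± 38.4 and 178 ± 29.9 RPKM.

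IGF2 was 7.07-fold higher in control tumors than in DMSO cells (log2 2.82 ± 0.35, adjusted p = 5.86e-07), and each of the 9 tumors lay above the highest culture library at 3.17 CPM. H19 differed by log2 −0.51 ± 1.04 (adjusted p = 0.674) on 2 to 32 counts per control tumor, and by 0.89 with a replicate block. Per length, H19 stood at 0.176 ± 0.149 times IGF2 in control tumors (SD, n = 5) and at 2.23 ± 0.56 times in DMSO cells (n = 2). IGFBP3 was 4.26-fold lower in control tumors (log2 −2.09 ± 0.56, adjusted p = 0.00273) on 1 to 17 counts per tumor, and without control tumor 4, which held most of them, the value was −3.36. IGF1R was 1.97-fold higher (0.97 ± 0.09, adjusted p = 4.62e-09), and the call hung on the scaling, since it passed 2-fold at 1.02 with DESeq2 size factors and 1.17 with total counts. IRS1 (−0.95 ± 0.1), IGFBP4 (−0.73 ± 0.13) and IRS2 (−0.65 ± 0.08) stayed under 2-fold, IGFBP2 differed by 0.46 ± 0.29 and IGF2R by −0.01 ± 0.08, where the sign of IGF2R turned with the scaling.

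Of 96 tested genes in the 8 related lists, 19 were called higher in control tumors and 15 lower, against 31.5% and 11.4% of all genes. In the list of proteases and inhibitors, 3 of 8 were called higher and 1 lower. PAPPA was 16.2-fold higher (log2 4.02 ± 0.14), STC2, which encodes a further pappalysin inhibitor, was 13-fold higher (3.7 ± 0.27), and PAPPA2 went from 0.0722 CPM in DMSO cells to 4.91 CPM. The lysosomal protease gene CTSD was lower (−1.07 ± 0.09), and STC1 averaged 333 CPM in control tumors and 219 CPM in DMSO cells and was not called. Among the other ligands, receptors and carriers, 3 of 8 were called higher and 2 lower. IGF1 and IGFALS, which encodes a partner of IGFs and IGFBP3 in blood, were listed at 0 in DMSO cells and at 0.461 and 0.613 CPM in control tumors. IGFBP7 was higher (2.83 ± 0.61), and INSRR (−2.89 ± 0.12) and LRP1 (−1.19 ± 0.1) were lower.

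The counts that follow stand beside 31.5% of all genes called higher in control tumors and 11.4% lower. Of 28 PI3K, AKT and mTOR genes, 1 was called higher, DEPTOR (1.63 ± 0.25), and 3 lower: INPPL1 (−2.26 ± 0.25), EIF4EBP1 (−1.44 ± 0.09) and MLST8 (−1.24 ± 0.09). Of 13 other adaptors and brakes, 1 was called higher and 4 lower, with SHC1 (−1.48 ± 0.07), SOCS3 (−1.44 ± 0.59), GRB10 (−1.26 ± 0.26) and SH2B2 (−1.24 ± 0.13) furthest. The FOXO list had 5 of 15 called higher and 2 lower, led by PDK4 (3.83 ± 0.69), FOXO1 (2.07 ± 0.23), BCL6 (−2.03 ± 0.19) and PIK3IP1 (1.96 ± 0.22). Imprinted genes had 4 of 14 called higher and 1 lower. RTL1 was listed at 0 in DMSO cells and at 14.9 CPM in control tumors, MEG3 (1.81 ± 0.14) and PEG10 (1.72 ± 0.4) were higher, and PHLDA2 (−1.76 ± 0.45) was lower. Of 4 imprinting regulators, CTCFL, a relative of CTCF, the insulator protein of the IGF2 and H19 cluster, was higher (2.73 ± 0.27) and TRIM28 was lower (−1.21 ± 0.07). Of 6 IGF2 mRNA-binding and fetal growth regulators, LIN28A went from 0.0136 to 2.32 CPM and was called higher, and IGF2BP1 was lower (−1.12 ± 0.09).

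Of the fibroblast markers, 1 of 10 was called higher and 6 lower, against 31.5% and 11.4% of all genes. Their sum was 316 to 322 CPM in DMSO cells against 96.2 to 177 CPM in control tumors. In DMSO cells FBLN1 led at a mean of 166 CPM. The line itself thus expressed this list, and the sum is not a measure of fibroblasts here. Leukocyte markers summed to 1.06 to 1.09 CPM in DMSO cells against 5.26 to 8.86 CPM, and adipocyte markers to 11.2 to 12.3 CPM against 41 to 57.2 CPM, led by LPL. SOX10, a defining gene of Schwann cells, had 0 counts in culture and a mean of 1.59 CPM in control tumors. The part of these lists in the level of IGFBP5 was not tested.

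The effect of retinoic acid differed between tumors and the 6-day culture by over 2-fold for 4 of 10 members, as tested by the difference of the effects over all 17 libraries. The effect was more positive in tumors for 2 members (IGFBP2 and IGFBP4), against 7.78% of all genes, and more negative for 2 (IGF2 and H19), against 13.1%, where the median gene differed by −0.118. IGFBP4, which fell 12.7-fold in culture and stood 1.63-fold higher in RA tumors, differed by log2 4.34 ± 0.21 (20.3-fold, adjusted p = 1.21e-10). IGFBP2 differed by 1.91 ± 0.42 (adjusted p = 0.00278), IGF2 by −2.09 ± 0.45 (adjusted p = 0.000784) and H19 by −4.91 ± 1.29 (adjusted p = 0.009). The H19 call was lost without control tumor 4, at −3.88 and an adjusted p of 0.0702. The drug form given, dose, time and host all differ between these contrasts and cannot be told apart.

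**Figure D5:**
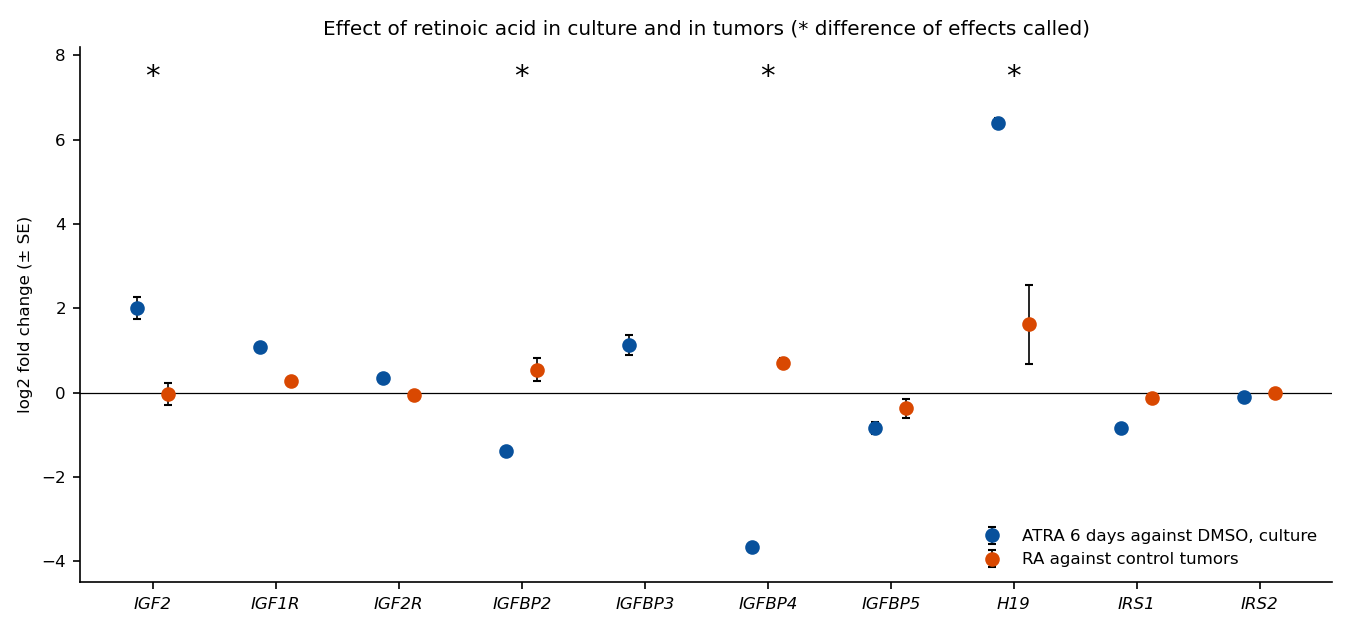
Log2 fold change ± SE of each gene after 6 days of ATRA in culture (blue) and in RA tumors against control tumors (orange). IGFBP3 has no tumor point, and asterisks mark the 4 genes whose 2 effects differed by over 2-fold in the test. IGFBP4 sits at −3.67 in culture and at 0.7 in tumors, and H19 at 6.4 and 1.62.

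Over the 17 libraries, the 5 protein-coding genes whose log2 CPM followed IGF2 most closely were BEND7, CCER2, MAN2A2, LRIG1 and SUSD4, with Pearson's r of 0.97 to 0.972 among 11171 genes compared. For IGF1R they were SLIT1, SHISA7, RAPGEF4, COG5 and STMN2, with r of 0.979 to 0.985. IGF2 follows the split between 8 culture and 9 tumor libraries. IGF1R does not, since its 6-day libraries (78.5 and 82 CPM) lie within the range of the control tumors (64.5 to 83.2 CPM). The points share this split and the 6-day rise, so these r values describe 1 or both of them. In order of mean level, IGF2 ran from 3-day cells (0.563 CPM) over 1-day and DMSO cells (0.701 and 0.712 CPM) to 6-day cells (2.96 CPM), RA tumors (4.95 CPM) and control tumors (5.06 CPM), and neither the 1-day and DMSO groups nor the tumor groups differed beyond their spread. IGF1R ran from 33.2 CPM in 3-day cells over 34, 37.1 and 73 CPM in 1-day cells, DMSO cells and control tumors to 80.2 CPM in 6-day cells and 88 CPM in RA tumors.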

How the data were processed

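RNA-seq tables of 8 culture and 9 tumor libraries of CHP-134 were used. The authors deposited expected counts per gene, which they made with Trim Galore 0.4.4, STAR 2.7.10a on hg38 and RSEM 1.3.3, and the removal of mouse reads is not given in the sources used here. Culture libraries were made with an Illumina Stranded Total RNA kit and tumor libraries with a KAPA HyperPrep kit. Of the deposited expected counts, 7.55% (cells) and 14.66% (tumors) of values were not whole, and all were rounded before testing. Library totals were 31607051 to 39422897 in cells and 17266558 to 29078889 in tumors, and IGF2 and H19 rested on 22 to 28 counts per DMSO library.

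Genes were filtered with filterByExpr (minimum count 10), scaled by TMM and tested with edgeR 4.0.16 (quasi-likelihood, R 4.3.3) in separate fits of cells (20237 genes) and tumors (21098 genes), and in a fit of all 17 libraries (25787 genes) for comparisons between them. Genes were called at a Benjamini-Hochberg adjusted p under 0.05 and over 2-fold. The fits were tested on simulated data. Lengths and positions came from GENCODE 44, and promoters and miRNAs from RefSeq. All members were named in every comparison, and in other lists up to 4 called genes of the largest change, 5 genes most like IGF2 and IGF1R, and markers at 0 or leading a sum. Members and lists were chosen with earlier results of these data known. Alternatives were DESeq2 1.42.0, its size factors, total counts, no filter, a replicate block, INS-IGF2 counts added to IGF2, all 17 libraries in the fit, and each library left out. Spike-in rows were not used. Replicate libraries differed by more than sampling noise. One item is not reported here.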

Additional observations from a re-analysis of the deposited data

Results flagged for a closer look

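Among 20 groups of tumor values tested for a sample apart from the rest, 4 were picked out, and chance flags about 1 in 20 groups. Control tumor 4 stood apart for IGF2 at 8.25 CPM (next 4.74), for IGFBP3 at 0.866 CPM (next 0.205) and for H19 at 1.63 CPM (next 0.513). RA tumor 1 stood apart for H19 at 4.7 CPM (next 0.928). Control tumor 4 also had the highest mitochondrial share (5.74%) of the control tumors. Its summed markers were the highest of the control tumors for fibroblasts (177 CPM), neuroblastoma identity (4330 CPM) and Schwann cells (15.9 CPM). The same held for pericytes and smooth muscle (25 CPM) and skin epithelium (11.7 CPM), but not for endothelium, leukocytes or adipocytes. The part of these in its values was not tested.

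The effect of retinoic acid differed between tumors and 6-day culture, with an adjusted p from edgeR under 0.05 for the difference itself, for 7 members. On the log2 scale, as the effect in tumors minus that in culture, the difference was −2.09 for IGF2, −0.84 for IGF1R, −0.42 for IGF2R, 1.91 for IGFBP2, 4.34 for IGFBP4, −4.91 for H19 and 0.69 for IRS1. The differences of IGF1R, IGF2R and IRS1 were under 2-fold. The share of all genes at that adjusted p alone was not counted. With the 2-fold limit added, the effect was more positive in tumors for 7.78% of all genes and more negative for 13.1%.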

How the results depend on the processing

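Of 532 member values under 7 alternatives, 516 kept their direction and their side of the threshold, 4 lost a call, 4 gained one and 8 turned sign without being called. With each library left out, 457 of 481 did, 3 lost a call, 7 gained one and 14 turned sign without being called. In the fit to all 17 libraries, the members called at 1 day went from 1 to 0 (H19, 2.22), and IGFBP3 at 6 days (1.16) and IGFBP2 at 3 days (−1.04) lost their calls, where the fit holds noisier tumors (biological coefficient of variation 10.95%, against 2.65% in cells). With a library left out, members called were 1 to 2 at 1 day (2 without DMSO replicate 1 or ATRA 1-day replicate 1, where IGFBP5 passed at −1.03 or −1.07) and 0 to 1 from 1 to 3 days (1 without ATRA 1-day replicate 2 or 3-day replicate 1, where H19 passed at 1.04 or 1.12). IRS1 in control tumors against DMSO cells passed 2-fold without a filter (−1.04). IGF1R there was 0.93 to 1.05 with a library left out, past 2-fold without DMSO replicate 1, control tumor 1 or 5. The cause of these changes was not tested.

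Turned signs of uncalled values were IGF2R in control tumors against DMSO cells (0.029 with DESeq2 or its size factors, 0.18 with total counts, −0.031 to 0.028 with a library left out), IGF2 at 1 day (0 with total counts, −0.057 to 0.044 with a library left out), IRS2 in RA tumors (0.009 without a filter, 0 in the fit to all 17 libraries, −0.055 to 0.055 with a library left out), IGFBP4 at 1 day (−0.001 in the fit to all 17 libraries), and H19 in control tumors against DMSO cells (0.889 with a replicate block). With a library left out they were also IGF2 in RA tumors (−0.212 to 0.206), IRS2 at 1 day (−0.01 to 0.07) and the IGFBP3 difference of effects (−0.682 to 0.853).

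Replicate numbers did not pair samples: deviations of same-numbered libraries correlated at −0.03 to 0.01 in culture and −0.33 to 0.11 in tumors. With the replicate block no member call changed (1, 3, 6, 0 and 4 members called in the culture comparisons), and genes called in RA tumors went from 60 to 12. That count was 124 without a filter, 157 in the fit to all 17 libraries and 24 to 160 with a library left out. Genes called at 1 day went from 554 to 308 with DESeq2 and 237 in the fit to all 17 libraries, and from 1 to 3 days from 827 to 511 and 425. Depth limits IGF2, H19 and IGFBP3, which had few counts in several libraries.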
